A study of Mus musculus with 12 samples.

Results

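The genes described here are 7 that serve NADPH production and the pentose phosphate pathway in mouse liver, namely G6pdx, Pgd, Tkt, Taldo1, Idh1, Idh2 and Nnt. They were chosen by symbol, with their changes in these same counts already known, out of 35999 gene symbols with transcripts in the files. Liver RNA was sequenced from 12 adult male C57Bl/6J mice after 7 days on 1 of 4 diets, with 3 mice per group. According to the paper, the mice were given deuterium-labeled water and went without food for some hours before euthanasia. The groups were a regular-fat control diet (RF.Ctrl), a regular-fat diet restricted in sulfur amino acids (RF.SAAR), a high-fat control diet (HF.Ctrl) and a high-fat restricted diet (HF.SAAR). All 4 diets lacked cysteine, and the SAAR diets also held less methionine, with glutamic acid in its place. Every group therefore lacked dietary cysteine, including the controls. Because the choice of genes used these counts in these groups, the levels and fold changes of the 7 genes are a description, and no p-value is given for them.

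NADPH is the electron donor for reductive synthesis of fatty acids and sterols and for keeping glutathione and thioredoxin reduced. The oxidative branch of the pentose phosphate pathway makes it at the steps of G6PDX, the entry and rate-limiting enzyme, and PGD, while transketolase (TKT) and transaldolase (TALDO1) of the non-oxidative branch exchange carbon between pentose phosphates and glycolytic sugars. Isocitrate dehydrogenases that use NADP make it in the cytosol and peroxisomes (IDH1) and in mitochondria (IDH2), and NNT of the inner mitochondrial membrane makes it from NADH. C57BL/6J mice carry a deletion of several exons of Nnt and lack a working NNT protein, so Nnt values here are levels of RNA from that gene and no measure of the enzyme.

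Total estimated counts ranged from 16203094 to 21230092 per mouse, and hepatocyte markers summed to between 77417 and 100421 CPM (counts scaled to a library of 1000000), with 8 of 8 detected. Pancreatic acinar markers were detected too (20 of 20 reached 1 CPM in some mouse). They summed to 17144 CPM in HF.SAAR mouse MRX370, 6023 in HF.Ctrl mouse MRX365 and 3613 in HF.SAAR mouse MRX366. Values without these 3 mice, which leave 1 HF.SAAR mouse, are therefore given beside the high-fat results. The sums were 1656 in HF.Ctrl mouse MRX361 and 1360 in RF.Ctrl mouse MRX363, against 39.8 to 84.5 in the remaining mice. MRX361 and MRX363 were kept in the fits without the 3 acinar-rich mice. Other marker sums moved with the restricted diet. Hepatocyte markers ranged from 86137 to 100421 in RF.Ctrl and from 77417 to 85387 in RF.SAAR, and overlapped between the high-fat groups. Erythroid markers (5 of 7 detected) ranged from 594 to 672 CPM in RF.Ctrl and from 318 to 393 in RF.SAAR, against 444 to 468 in HF.Ctrl and 243 to 554 in HF.SAAR. Cholangiocyte markers (5 of 6 detected) ranged from 43.1 to 58.3 CPM in HF.Ctrl and from 35.2 to 38.7 in HF.SAAR. The part of these shifts in the results below was not tested, and in bulk RNA a change in the number of cells of a type cannot be told apart from a change in RNA per cell.

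Idh2 and Idh1 are isoenzymes of the same reaction, and with SAAR the first had the largest fitted changes of the 7 genes while the second had none past the threshold, so the sequence ahead of both genes is shown. The bases come from RefSeq (GRCm38.p6), which held a promoter entry for 6 of the 7 genes, read 5′ to 3′ on the gene's strand and limited to the part of the 250 bases ahead of the RefSeq start that no annotated exon covers. The Idh2 stretch is chr7:80115393-80115600 (minus strand, 208 bases) and the Idh1 stretch is chr1:65179182-65179392 (minus strand, 211 bases), ahead of the start that Idh1's main transcript uses. Capitals mark matches to any of the motifs searched on both strands, which were the antioxidant response element cores TGACNNNGC and TGAGNNNGC, the C/EBP-ATF core TGATGNAA, the E-box CACGTG, the CCAAT box and the GC box GGGCGG.
Idh2: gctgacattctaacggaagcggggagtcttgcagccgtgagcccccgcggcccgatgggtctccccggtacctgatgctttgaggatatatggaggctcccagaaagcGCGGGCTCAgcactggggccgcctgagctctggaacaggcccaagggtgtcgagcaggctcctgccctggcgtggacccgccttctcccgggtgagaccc
Idh1: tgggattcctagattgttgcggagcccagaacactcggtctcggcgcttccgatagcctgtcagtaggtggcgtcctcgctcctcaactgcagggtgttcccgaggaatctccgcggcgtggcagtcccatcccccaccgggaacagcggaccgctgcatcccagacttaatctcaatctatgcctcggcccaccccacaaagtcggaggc
The printed Idh2 stretch holds 1 match, to TGAGNNNGC on the opposite strand, 142 to 134 bases ahead of the RefSeq start, and the Idh1 stretch holds none. Further matches lay nearer the start, wholly or partly in the exonic bases left out. They were a GC box for Idh1 (19 to 14 bases ahead of the start), and for Idh2 a CCAAT box (44 to 40) and GC boxes (38 to 33 and 18 to 13). Over the whole 250 bases, TGACNNNGC (10.2% of all 32851 promoters) was found for G6pdx, and TGAGNNNGC (14.4%) for Taldo1 and Idh2. The share of promoters with either core was not counted. The G6pdx window lies downstream of the start of its main transcript. CCAAT (33.8% of promoters) was found for Pgd, Taldo1, Idh1 and Idh2. For Idh1 it lay ahead of another RefSeq start (chr1:65186479) and not ahead of the start shown. TGATGNAA (3.45%) and CACGTG (6.02%) were found for none of the 6 genes, whereas GGGCGG (32.7%) was found for all 6. A match is a run of letters and not a bound site.

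Each gene was compared between SAAR and Ctrl mice within a fat level and between fat levels within a diet, in a quasi-likelihood fit of edgeR over 14659 genes. Called means a Benjamini-Hochberg adjusted p under 0.05 over all these genes. On regular fat (RF.SAAR vs. RF.Ctrl), 1 of the 7 genes (Idh2) was called, against 1.49% of all genes tested, and on high fat (HF.SAAR vs. HF.Ctrl) 3 passed (Idh2, Nnt and Tkt), against 1.98%. All of these were higher in SAAR. The median log2 fold change of the 7 genes was 0.04 and 0.27, beside -0.0014 and -0.0013 for all genes. For 4 of the 7 genes in each comparison no SAAR mouse fell within the range of the Ctrl mice, against 18.2% and 17.9% of all genes.

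**Figure D1:**
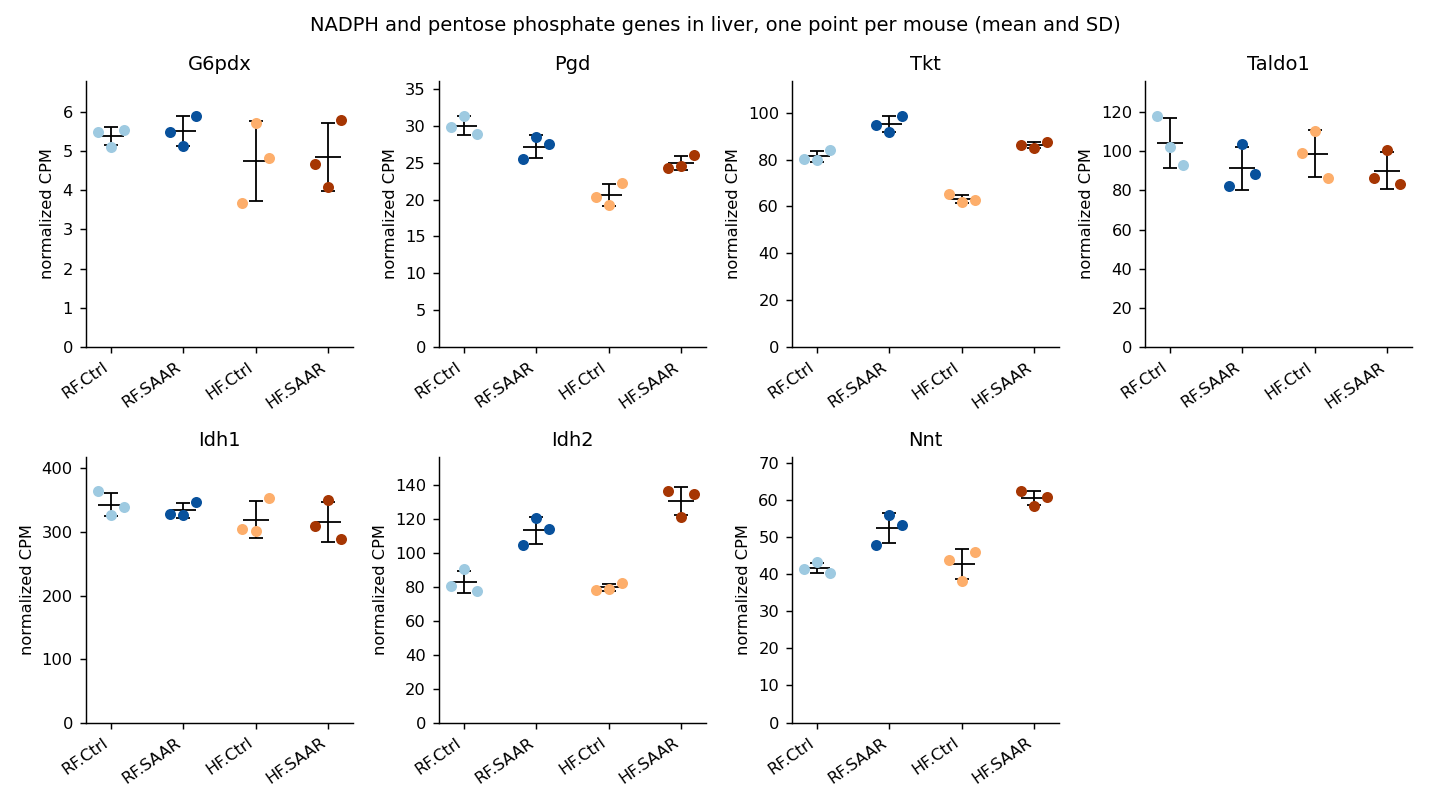
Normalized CPM of the 7 genes (vertical axes, each from 0) by diet group (horizontal axis), with 1 point per mouse and the mean and SD of 3 mice in black. Idh2 and Nnt lie above both control groups in every SAAR mouse, Tkt is lowest in HF.Ctrl, and G6pdx, Taldo1 and Idh1 overlap between groups.

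Idh2, the mitochondrial NADP isocitrate dehydrogenase (ENSMUSG00000030541, GRCm38 chr7:80094846-80115392), was higher in every SAAR mouse than in every Ctrl mouse. The RF.Ctrl mice had 80.4, 90.3 and 77.7 normalized CPM and the RF.SAAR mice 105, 120.5 and 114. They were 78.2, 78.5 and 82.1 in HF.Ctrl and 136, 121 and 134 in HF.SAAR. The HF.SAAR mice also lay above the RF.SAAR mice, narrowly (121.1 in the acinar-rich MRX366 against 120.5), while the control groups overlapped. The ratio of Idh2 to Idh1 counts, which needs no scaling between mice, overlapped between the SAAR groups (RF.SAAR highest 0.369, HF.SAAR lowest 0.346). The log2 fold change of Idh2, which rose on both fat levels, was 0.45 (SE 0.097, 95% interval 0.24 to 0.66) on regular fat and 0.71 (SE 0.097, 95% interval 0.50 to 0.92) on high fat. The difference between these changes was 0.26 (SE 0.14, 95% interval -0.03 to 0.56). Without the 3 acinar-rich mice the high-fat value was 0.75 (SE 0.15) and was not called (the 1 HF.SAAR mouse left was assumed to vary like the other groups). The regular-fat call was lost on leaving out any 1 RF.Ctrl or RF.SAAR mouse, HF.Ctrl replicate 1 or HF.SAAR replicate 1 (8 of 12 mice), with values between 0.40 and 0.52 over all 12, while the high-fat call was kept in 12 of 12. The regular-fat call was also lost with no low-count filter, with each mouse's effective transcript lengths as offsets, with the compared groups alone and without the 3 acinar-rich mice.

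Nnt, the mitochondrial transhydrogenase, followed Idh2 across mice. The RF.Ctrl mice had 41.6, 43.2 and 40.4 normalized CPM and the RF.SAAR mice 48.0, 55.9 and 53.2. They were 43.8, 38.3 and 46.1 in HF.Ctrl and 62.4, 58.4 and 60.8 in HF.SAAR, and every SAAR mouse was above every Ctrl mouse. Nnt rose on high fat by a log2 fold change of 0.50 (SE 0.096, 95% interval 0.30 to 0.71), and its regular-fat value was 0.33 (SE 0.096, 95% interval 0.12 to 0.54), which was not called. Without the 3 acinar-rich mice the high-fat value was 0.45 (SE 0.14) and was not called. The high-fat call was also lost without HF.Ctrl replicate 1, HF.Ctrl replicate 2, HF.SAAR replicate 1 or HF.SAAR replicate 3, with values from 0.43 to 0.56 over the 12 mice left out in turn.

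The Nnt values are sums over 2 gene IDs that the annotation places on chromosome 13 over nearly the same bases, ENSMUSG00000025453 (chr13:119335448-119408997, 5 transcripts) and ENSMUSG00000116207 (chr13:119335528-119408952, 1 transcript). kallisto assigns reads that match both by likelihood, and the second ID took from 0% to 54.2% of a mouse's Nnt counts, 12.2% in all. Its share was 54.2% in MRX365 of HF.Ctrl and 38% in MRX368 of RF.SAAR, and at most 17.7% in the other mice. For ENSMUSG00000025453 alone, the log2 fold change was 0.08 (SE 0.27) on regular fat and 0.79 (SE 0.27) on high fat, and neither was called. The summed level thus differed little among mice of a group where the split between the IDs differed widely, and Nnt was called on high fat with the IDs summed and not with the first ID alone.

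**Figure D2:**
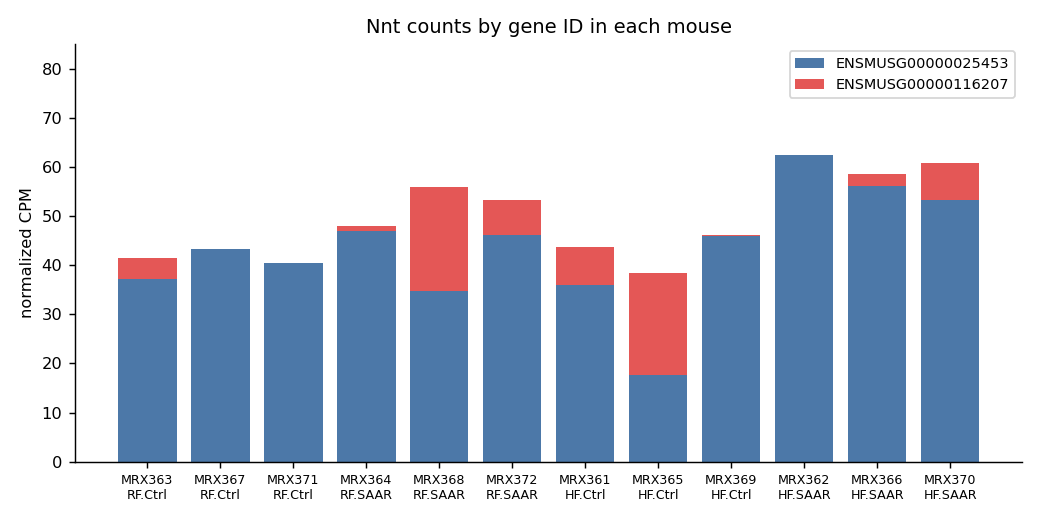
Normalized CPM of Nnt (vertical axis) in each of the 12 mice (horizontal axis, with group), stacked by gene ID. The bars of the 6 SAAR mice are taller than those of the 6 Ctrl mice, and the share of ENSMUSG00000116207 is largest in MRX368 and MRX365.

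Idh1, the cytosolic and peroxisomal isoenzyme (ENSMUSG00000025950, chr1:65158616-65186500), overlapped between all groups. Its normalized CPM were 364, 327 and 339 in RF.Ctrl, 328, 326 and 348 in RF.SAAR, 304, 301 and 353 in HF.Ctrl and 310, 350 and 288 in HF.SAAR. The log2 fold change for SAAR was -0.04 (95% interval -0.26 to 0.18) on regular fat and -0.02 (95% interval -0.23 to 0.20) on high fat, and both turned positive, at 0.13 and 0.14, with library totals alone as the scale. The high-fat value was -0.105 (SE 0.15) without the 3 acinar-rich mice. The ratio of Idh2 to Idh1 counts, which needs no scaling between mice, was 0.242 ± 0.0297 (SD, n = 3) in RF.Ctrl and 0.339 ± 0.0261 in RF.SAAR. It was 0.25 ± 0.0157 in HF.Ctrl and 0.417 ± 0.0631 in HF.SAAR, and the lowest SAAR mouse (0.32) was above the highest Ctrl mouse (0.276).

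Tkt, which encodes transketolase (ENSMUSG00000021957, chr14:30548359-30574720), separated all 4 groups. It was lowest in HF.Ctrl (65.2, 61.9 and 62.7 normalized CPM), followed by RF.Ctrl (80.2, 79.9 and 84.1). HF.SAAR mice had 86.4, 84.8 and 87.5 and RF.SAAR mice 94.6, 91.9 and 98.7. Tkt rose on high fat by a log2 fold change of 0.45 (SE 0.082, 95% interval 0.27 to 0.62), and had 0.22 (SE 0.082, 95% interval 0.05 to 0.40) on regular fat, which was not called. Without the 3 acinar-rich mice the high-fat value was 0.42 (SE 0.13) and was not called. The call was also lost without HF.Ctrl replicate 1, HF.SAAR replicate 1 or HF.SAAR replicate 3, with values from 0.43 to 0.47.

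Taldo1, the transaldolase gene of the same branch (ENSMUSG00000025503, chr7:141392199-141402968), did not follow Tkt. Its normalized CPM ranged from 92.9 to 118 in RF.Ctrl, 82.2 to 104 in RF.SAAR, 86.5 to 110 in HF.Ctrl and 83.4 to 101 in HF.SAAR. The log2 fold change was -0.19 (95% interval -0.47 to 0.09) on regular fat and -0.13 (95% interval -0.41 to 0.15) on high fat, where library totals alone gave 0.04 and the fit without the 3 acinar-rich mice gave -0.125 (SE 0.19). The ratio of Tkt to Taldo1 counts within a mouse was 0.789 ± 0.113 (SD, n = 3) in RF.Ctrl, 1.05 ± 0.142 in RF.SAAR, 0.647 ± 0.0823 in HF.Ctrl and 0.964 ± 0.109 in HF.SAAR. It overlapped between RF.Ctrl (highest 0.905) and RF.SAAR (lowest 0.887) and did not overlap between HF.Ctrl (highest 0.725) and HF.SAAR (lowest 0.841).

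Pgd, the second NADPH-producing step of the oxidative branch (ENSMUSG00000028961, chr4:149149991-149166771), was the gene whose order of SAAR and Ctrl turned with fat. The RF.Ctrl mice had 29.8, 31.4 and 28.9 normalized CPM against 25.5, 28.6 and 27.5 in RF.SAAR. It had 20.4, 19.2 and 22.3 in HF.Ctrl against 24.2, 24.6 and 26.04 in HF.SAAR. Every RF.SAAR mouse was thus below every RF.Ctrl mouse and every HF.SAAR mouse above every HF.Ctrl mouse, with log2 fold changes of -0.14 (SE 0.094, 95% interval -0.35 to 0.06) and 0.27 (SE 0.095, 95% interval 0.07 to 0.48). Neither was called. The difference between them was 0.42 (SE 0.13, 95% interval 0.13 to 0.70) and was not called either, against 0.00682% of all genes called for this interaction. With library totals alone as the scale, the regular-fat value was 0.02 and no longer negative, and without the 3 acinar-rich mice the high-fat value was 0.16 (SE 0.16).

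G6pdx, which encodes the rate-limiting enzyme (ENSMUSG00000031400, chrX:74409483-74429194), was the lowest of the 7 genes. The RF.Ctrl mice had 5.49, 5.12 and 5.53 normalized CPM and the RF.SAAR mice 5.49, 5.14 and 5.91. The high-fat mice had 3.69, 5.73 and 4.81 in HF.Ctrl and 4.67, 4.08 and 5.79 in HF.SAAR, and all 4 groups overlapped. The log2 fold change for SAAR was 0.04 (SE 0.19) on regular fat and 0.03 (SE 0.19) on high fat, with 95% intervals of -0.37 to 0.45 and -0.39 to 0.44. When each mouse's effective transcript length was taken into account, the values were 0.47 (SE 0.245) and 0.35 (SE 0.248). Leaving out the 3 acinar-rich mice gave 0.11 (SE 0.27) on high fat. G6pdx had between 54 and 123 estimated counts per mouse, and its main transcript held between 80.9% and 98.9% of them, the rest lying on shorter transcripts.

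**Figure D3:**
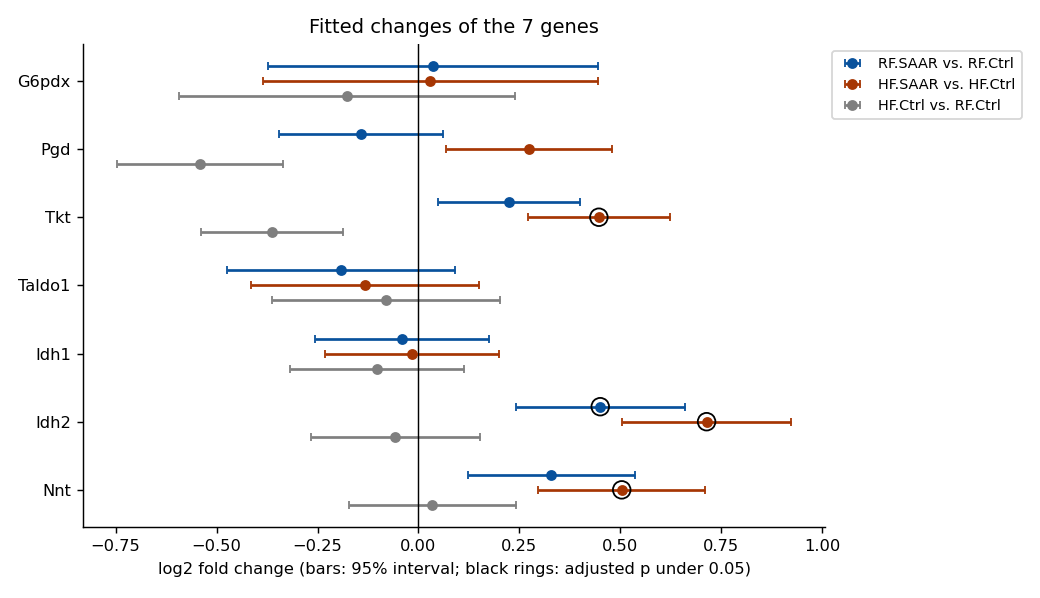
Fitted log2 fold changes (horizontal axis) of the 7 genes (vertical axis) with 95% intervals as bars, for SAAR vs. Ctrl on each fat level and for HF.Ctrl vs. RF.Ctrl. Black rings mark the 4 values past the threshold, Idh2 on both fat levels and Tkt and Nnt on high fat, and the HF.Ctrl vs. RF.Ctrl values share their HF.Ctrl mice with HF.SAAR vs. HF.Ctrl.

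High fat alone was compared in HF.Ctrl vs. RF.Ctrl, where none of the 7 genes was called, nor was any of all 14659 genes (0%). At an unadjusted p under 0.05 there were 525 genes, only 3.58% of all genes tested. DESeq2 called 34 genes, Pgd and Tkt among them. Pgd had a log2 fold change of -0.54 (SE 0.095, 95% interval -0.75 to -0.34) and Tkt of -0.36 (SE 0.082, 95% interval -0.54 to -0.19). For both, every HF.Ctrl mouse was below every RF.Ctrl mouse, as for 8.52% of all genes in either direction, and the other 5 genes lay between -0.18 and 0.03. Without the acinar-rich mice, of which 1 is in HF.Ctrl, the values were -0.48 (SE 0.12) for Pgd and -0.34 (SE 0.10) for Tkt. The HF.Ctrl mice enter this comparison and HF.SAAR vs. HF.Ctrl alike. In HF.SAAR vs. RF.SAAR none of the 7 was called (0.0478% of all genes). Idh2 (0.21, SE 0.097), by a narrow margin, and Nnt (0.21, SE 0.095) did not overlap upwards. Tkt (-0.14, SE 0.081) did not overlap downwards, beside 10.1% of all genes in either direction. With 1 HF.SAAR mouse left after the acinar-rich mice were taken out, these values were 0.255 (SE 0.14) for Idh2, 0.24 (SE 0.14) for Nnt and -0.15 (SE 0.13) for Tkt.

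On the TPM scale, which divides by transcript length and so allows genes to be compared, the order in RF.Ctrl was Idh1 at 172.1 ± 3.97 TPM (SD, n = 3), Taldo1 at 98.0 ± 8.50, Idh2 at 51.8 ± 6.30, Tkt at 36.4 ± 2.88, Pgd at 14.3 ± 1.28, Nnt at 12.6 ± 0.946 and G6pdx at 2.7 ± 0.182. Only Pgd and Nnt overlapped as neighbors in that order. In both SAAR groups Nnt lay above Pgd without overlap, at 19.3 ± 0.571 against 15.9 ± 0.691 TPM in RF.SAAR and 20.7 ± 2.63 against 13.4 ± 1.67 in HF.SAAR. The mean of Nnt was above that of Pgd in HF.Ctrl as well, at 11.99 ± 2.332 against 8.995 ± 1.953 TPM, with overlap. In HF.SAAR, Idh2 (94.7 ± 13.4) reached the range of Taldo1 (96.2 ± 0.227). TPM are not scaled between mice by the TMM factors, so they are compared here only between genes.

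**Figure D4:**
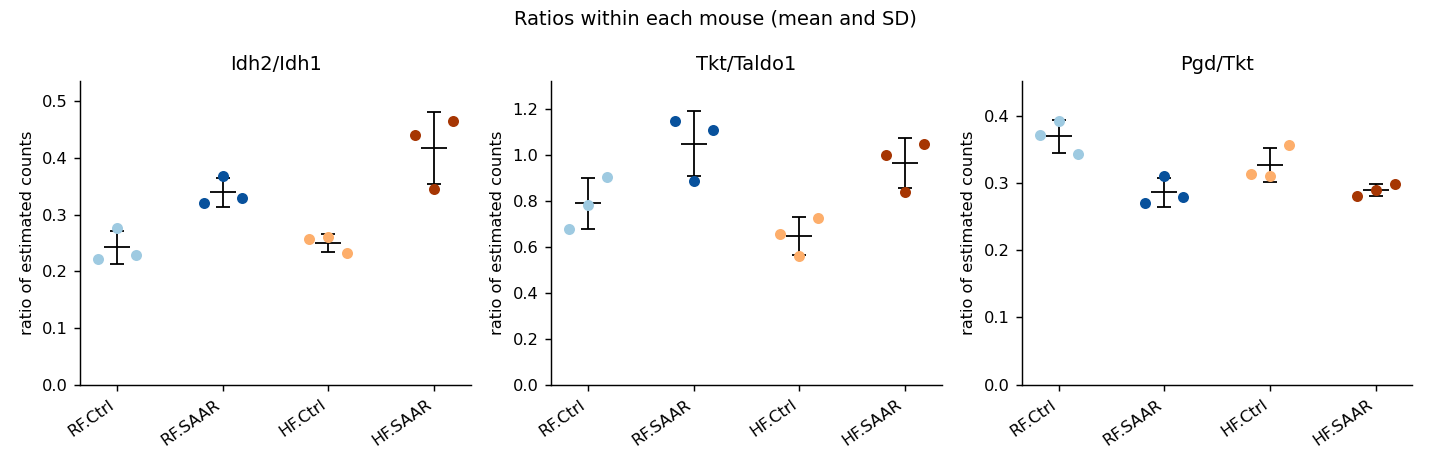
Ratios of the estimated counts of 2 genes within a mouse (vertical axes, each from 0) by diet group (horizontal axis), 1 point per mouse with the mean and SD of 3 mice. Idh2/Idh1 is higher in all SAAR mice than in all Ctrl mice. Pgd/Tkt has its highest mean in RF.Ctrl, at 0.37 ± 0.0246, and overlaps there with HF.Ctrl (RF.Ctrl lowest 0.344, HF.Ctrl highest 0.356).

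How the counts of a gene divide among its transcripts was not used to choose the genes and could be tested for the 2 with at least 2 transcripts of 5% or more. The main Tkt transcript (ENSMUST00000225857) is annotated as a processed transcript, starts 8478 bases downstream of the protein-coding ENSMUST00000022529 and has 12 of its 14 exons in common with it. It took 53.4% ± 6.66 (SD, n = 3) of Tkt counts in RF.Ctrl, 61.6% ± 6.09 in RF.SAAR, 58.7% ± 8.17 in HF.Ctrl and 58.5% ± 1.24 in HF.SAAR. The difference of SAAR from Ctrl was 4.01 percentage points, p = 0.3 in an exact two-sided permutation test within fat levels and 0.6 adjusted over both genes. The main Nnt transcript (ENSMUST00000099149) took 91.2% ± 8.98 of Nnt counts in RF.Ctrl and 74.5% ± 15 in RF.SAAR, against 68.2% ± 32.1 in HF.Ctrl and 90.3% ± 9.11 in HF.SAAR. Its mean share was thus lower with SAAR on regular fat (-16.7 percentage points) and higher on high fat (22.1), and the shares overlapped between diets on both. The counts outside it include those that kallisto assigned to the second Nnt gene ID, at 38% in MRX368 (RF.SAAR) and 54.2% in MRX365 (HF.Ctrl). The part of that assignment in these shares was not tested. Over both fat levels the difference was 2.74 percentage points, with exact p = 0.845 and an adjusted value of 0.845, and it turned negative without the 3 acinar-rich mice (-2.92), without HF.Ctrl replicate 2 (-6.3) and without RF.SAAR replicate 1 (-0.463). The smallest p that this test can give is 0.005. The test is over both fat levels together, and whether the Nnt difference itself differed between them was not tested.

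The lists of further genes were written for this report with earlier results of these data known. Adjusted p-values of their genes are therefore a description and not an independent test. Of 15 further pentose phosphate genes listed, 12 were tested, and 0 were called with edgeR for SAAR on either fat level. The 2 with the smallest p were Prpsap2 and Prpsap1, which encode proteins associated with phosphoribosyl pyrophosphate synthetase. On the log2 scale Prpsap2 had -0.50 (SE 0.15, edgeR adjusted p = 0.116) on high fat and -0.20 (SE 0.15) on regular fat, and Prpsap1 had 0.28 (SE 0.12) and 0.39 (SE 0.12, edgeR adjusted p = 0.127). Prpsap1 was called on regular fat, as the 1 gene of the 12, with library totals alone as the scale (library-size scaling, 0.56, SE 0.13), which moves the median of all genes up by 0.17, and with DESeq2 (0.40, SE 0.12). Prpsap2 had -0.855 (SE 0.22) on high fat without the 3 acinar-rich mice and was not called. G6pd2, Tktl1 and Tktl2 had at most 1 count in a mouse and were not tested. The median of the 12 genes was -0.13 on regular fat and -0.08 on high fat.

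Among 8 other genes whose enzymes can produce NADPH, Aldh1l2 rose on both fat levels and Mthfd2 on high fat. Mthfd2 and Aldh1l2 encode mitochondrial enzymes of folate one-carbon metabolism. Mthfd2 had between 0.914 and 1.17 normalized CPM in HF.Ctrl and between 6.46 and 18.8 in HF.SAAR, which was 3.55 on the log2 scale (SE 0.34, edgeR adjusted p = 9.89e-05). On regular fat it had from 2.92 to 3.65 in RF.Ctrl and from 7.46 to 7.7 in RF.SAAR, and a log2 value of 1.19 (SE 0.30, edgeR adjusted p = 0.0688). Aldh1l2 had at most 1.61 normalized CPM in any Ctrl mouse and at least 2.72 in any SAAR mouse, and rose by 2.18 (SE 0.39, edgeR adjusted p = 0.0137) on regular fat and 1.77 (SE 0.38, edgeR adjusted p = 0.0298) on high fat. Mthfd2 was called on high fat in all 12 fits that left out 1 mouse. Aldh1l2 lost its regular-fat call without RF.Ctrl replicate 1, RF.Ctrl replicate 3 or RF.SAAR replicate 3 (range 1.91 to 2.42) and its high-fat call without HF.Ctrl replicate 1, HF.Ctrl replicate 3 or any HF.SAAR mouse (range 1.45 to 2.18). Aldh1l2 was not called on either fat level with effective-length offsets (1.93 and 1.63), nor on high fat with the compared groups alone (1.76) or without the 3 acinar-rich mice (2.14, SE 0.56), and a filter of at least 10 counts in every mouse removed it. Mthfd2 was called on high fat in all 10 other settings, the fit without the 3 acinar-rich mice (3.6, SE 0.27) included. Its high-fat value was lowest with effective-length offsets (2.44, SE 0.29) and highest with library-size scaling (3.74, SE 0.36). On regular fat it was called with library-size scaling, DESeq2, no low-count filter, the compared groups alone and without the acinar-rich mice, with values from 1.19 to 1.36.

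The lists of NADPH use, glucose 6-phosphate supply and NADP supply held 4 further calls, all for SAAR on high fat, and their number depended on the scaling and the tool. Of 16 genes of NADPH-using enzymes 2 rose, Nqo1 (quinone reductase) by 1.40 (SE 0.18, edgeR adjusted p = 0.000922) and Cbr1 (carbonyl reductase) by 0.77 (SE 0.15, edgeR adjusted p = 0.0152). Nqo1 had between 2.25 and 2.68 normalized CPM in HF.Ctrl and between 5.89 and 6.97 in HF.SAAR. Of 8 genes of glucose 6-phosphate supply 1 rose, Gpi1 (glucose 6-phosphate isomerase), by 0.62 (SE 0.091, edgeR adjusted p = 0.00302), from between 105 and 111 normalized CPM in HF.Ctrl to between 157 and 179 in HF.SAAR. From a list of NAD-linked isocitrate and malate steps, Idh3a, a subunit of the NAD-linked isocitrate dehydrogenase, was called on neither fat level. It had 0.68 (SE 0.17, edgeR adjusted p = 0.0691) on regular fat and 0.66 (SE 0.17, edgeR adjusted p = 0.0728) on high fat. On both it was called with library-size scaling, no low-count filter and DESeq2, and on high fat also with the compared groups alone. Of 8 genes of NADP supply 1 fell on high fat, Nadk2 (mitochondrial NAD kinase), by 0.43 (SE 0.096, edgeR adjusted p = 0.0361). The cytosolic Nadk had 0.37 (SE 0.097, edgeR adjusted p = 0.0744) there. On regular fat the lists of NADPH use, glucose 6-phosphate supply and NADP supply held no call, and Pfkl, the liver phosphofructokinase, had 0.26 (SE 0.10, edgeR adjusted p = 0.259), and no gene of the lists was called for the interaction. With library-size scaling, which moves the median of all genes up by 0.17, Cbr1 (0.65), Txnrd1 (0.62) and Nadk (0.41) were called higher on regular fat. On high fat that scaling called Akr1a1 (0.43) and Blvrb (0.58) of NADPH use higher beside Nqo1, Cbr1 and Gpi1, and for NADP supply 0 genes lower and 1 higher, with Nadk at 0.54 (SE 0.098) and Nadk2 at -0.27 (SE 0.12) and not called. DESeq2 called Cbr1 and Txnrd1 higher on regular fat, and on high fat it also called Nadk higher and Hsd17b12 and Nmnat3 lower. Txnrd1, Akr1a1, Blvrb, Hsd17b12 and Nmnat3 were not called in the TMM-scaled edgeR fit and are named here after their values were seen. Cbr1 was also called on regular fat with the compared groups alone (0.48), where it was not called on high fat. Without the 3 acinar-rich mice the 4 high-fat calls were lost, and on leaving out 1 mouse at a time Gpi1 and Nqo1 were kept in 12 of 12 fits. Cbr1 was lost without HF.Ctrl replicate 1, HF.Ctrl replicate 3 or HF.SAAR replicate 2 (range 0.60 to 0.89). Nadk2 was kept only without HF.Ctrl replicate 2, RF.SAAR replicate 2 or RF.SAAR replicate 3 (range -0.47 to -0.34 over all 12), and was lost too with no low-count filter (-0.42), effective-length offsets (-0.44) and the compared groups alone (-0.43).

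**Figure D5:**
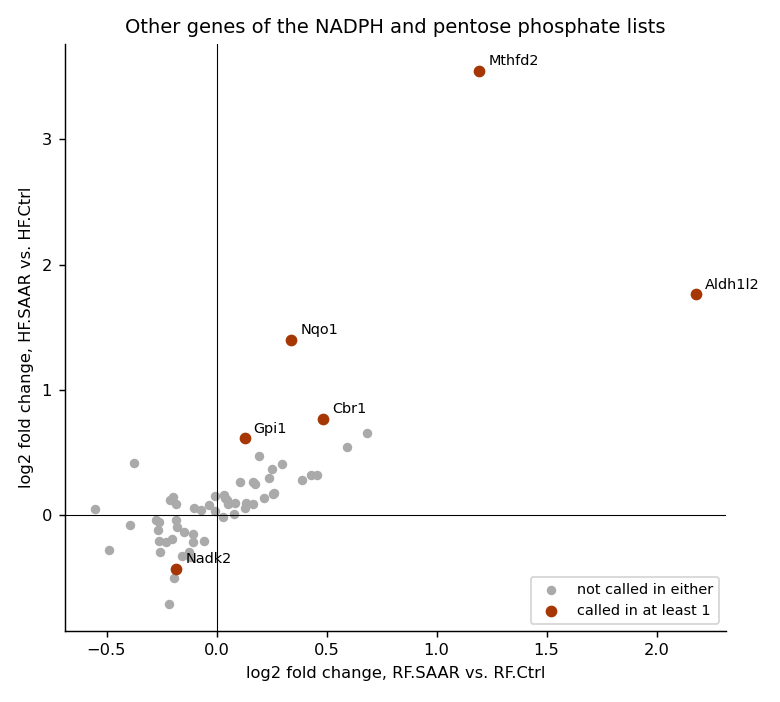
Log2 fold changes of the reported genes of the other NADPH and pentose phosphate lists on regular fat (horizontal axis) and high fat (vertical axis), 1 point per gene, with the genes called in at least 1 comparison in color and named. Mthfd2 and Aldh1l2 lie farthest from 0 on high fat and regular fat, respectively, and Nadk2 is the 1 called gene with negative values.

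The genes most like each of the 7 were ranked by Pearson's r of log2 CPM over the 12 mice, among 14658 genes, as a description in which all points share the 4 diets. Idh2 was most like Rhod (r = 0.967), Pck2 (r = 0.966) and Nnt (r = 0.963), and Nnt was most like Pck2 (r = 0.965), Idh2 and Gsta2 (r = 0.958). Pck2 encodes the mitochondrial phosphoenolpyruvate carboxykinase and Gsta2 a glutathione transferase. Tkt was most like Gpi1 (r = 0.921), A230050P20Rik (r = 0.912) and Cd9 (r = 0.912), and Taldo1 was most like Mettl26 (r = 0.948), Guk1 (r = 0.943) and Dbi (r = 0.941). Pgd was most like Myo7a (r = 0.867), Gm19572 (r = 0.83) and Tars (r = 0.83), and Idh1 most like Rgr (r = 0.834), Rbbp5 (r = 0.832) and Ttc14 (r = 0.826). G6pdx, with its low counts, was most like Klrd1 (r = 0.94), Ecm2 (r = 0.894) and Klrb1c (r = 0.851), of which Klrd1 and Klrb1c encode receptors of natural killer cells. Among the 7 genes themselves, Pgd and Tkt had r = 0.697, Tkt and Idh2 r = 0.693, and Taldo1 and Nnt r = -0.499.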

How the data were processed

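Liver RNA from 12 mice was sequenced with poly(A) libraries. The authors trimmed reads with cutadapt and quantified them with kallisto against the Ensembl mouse transcriptome. Per transcript and mouse, the deposited values are estimated counts of read pairs, unnormalized and unfiltered, and TPM, which the authors' run scaled to a sum of 1000000 after division by effective length. Effective lengths, in bases, were also deposited. The labels give HF and RF under a tag named diet and Ctrl and SAAR under a tag named dietary fat content, and the values were read by their meaning. The labels name no batch and give no replicate numbers, so replicates are numbered in accession order. Each sample is 1 mouse.

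Transcripts were matched to GENCODE (GRCm38), 116816 of 118489 in all, and the 1673 others, with 1.08% of counts, were left out. Counts were summed by symbol, rounded, filtered with filterByExpr (14659 genes) and scaled by TMM in edgeR 4.0.16 (R 4.3.3, limma 3.58.1). A robust quasi-likelihood fit over 4 groups gave each comparison, and calls used an adjusted p under 0.05. Members and lists were chosen with earlier results of these data known. Named genes were all 7 members, every list gene past the threshold for SAAR, the 2 genes of each list with the smallest p, and the 3 most alike genes. The fit was tested on simulated data. Results for some list genes are not reported here. DESeq2 1.42.0 and other scalings, filters and mouse sets were alternatives. The spread between mice sets the precision, since without molecular identifiers the counts may hold copies of 1 molecule.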

Additional observations from a re-analysis of the deposited data

Results flagged for a closer look

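Pgd was lower in every RF.SAAR mouse than in every RF.Ctrl mouse, with a log2 fold change of -0.14, and higher in every HF.SAAR mouse than in every HF.Ctrl mouse, with a log2 fold change of 0.27. It was singled out because the mice of the fat levels moved in opposite directions. The share of all genes that turned in this way was not counted. On regular fat the gap was narrow, with the highest RF.SAAR mouse at 28.58 normalized CPM and the lowest RF.Ctrl mouse at 28.87. With library totals alone as the scale, the regular-fat value was no longer negative. The gene was chosen with these counts known, so the difference was not tested here as an independent result, and the fitted difference of 0.42 was not called over all genes.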

How the results depend on the processing

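No paired analysis was possible because the labels give no replicate numbers. Of the 7 genes, 1 was called for SAAR on regular fat and 3 on high fat. On regular fat the number was 2 with library-size scaling, 3 with DESeq2, and 0 with no low-count filter, effective-length offsets, the compared groups alone or without the 3 acinar-rich mice. On high fat it was 1 with the compared groups alone and 0 without the 3 acinar-rich mice. For fat within Ctrl it was 0, and 2 with DESeq2. Leaving out each mouse gave 0 to 1 on regular fat and 1 to 3 on high fat. Over all genes there were 218 and 290 calls for SAAR on regular and high fat, 0 and 7 for fat within Ctrl and SAAR, and 1 for the interaction. In that order, library-size scaling moved the first 4 to 428, 724, 1 and 4, and DESeq2 gave 607, 608, 34, 86 and 16. No low-count filter gave 3 and 14 calls for fat within Ctrl and SAAR. The compared groups alone gave 190 for SAAR on high fat and 2 for fat within Ctrl, and effective-length offsets gave 0 for the interaction. Without the 3 acinar-rich mice there were 30 calls for SAAR on high fat and 0 for fat within SAAR and for the interaction, with 1 HF.SAAR mouse left. Leaving out each mouse gave 92 to 244, 115 to 312, 0 to 2, 1 to 7 and 0 to 2 calls. Library-size scaling moved the median of all genes by 0.17 for SAAR on both fat levels. The Nnt transcript difference reversed without the 3 acinar-rich mice (-2.92 percentage points), without HF.Ctrl replicate 2 (-6.3) and without RF.SAAR replicate 1 (-0.463), with a range of -6.3 to 9.01, and that of Tkt ranged from 2.17 to 6.37. With counts summed by gene ID, an alternative chosen after seeing the data, Nnt was not called on high fat. The cause of these shifts was not tested, beyond the smaller number of mice where mice were left out.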
